A study of Mus musculus with 29 samples.

Results

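Integrins and homing adhesion molecules were followed in pro-B cells of mouse bone marrow through 9 genes, matched by symbol in the deposited expression tables: the integrin alpha chain genes Itga4, Itga6 and Itgal, the integrin beta chain genes Itgb1, Itgb2 and Itgb7, and Selplg, Icam1 and Cd44. All 9 were found, among 24732 entries in the tables built on mm9 and among 25588 entries in the tables built on mm10. The RNA-seq libraries came from sorted C57BL/6 cells in 3 groups: 3 wild-type libraries (Pax5+/+), 2 libraries of cells without functional Pax5 (Pax5-/-), and 3 libraries of Pax5(+/+) Meox2-cre cells, which carry a Cre recombinase active in nearly all tissues, from mice at 3 weeks of age. For the Meox2-cre libraries the labels state that cells were pooled. Ages of the Pax5+/+ and Pax5-/- mice are not given in the sources used here. The methods describe different sort gates for the genotypes: both were taken as Kit+, and the gate of Pax5-deficient progenitors also asked for Ly6D. No product of the 9 genes is named in either gate.

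Integrins are receptors made of an alpha and a beta chain, which bind matrix proteins or counter-receptors on other cells and need to be switched on from inside the cell. In the bone marrow, B cell progenitors are held on stroma by the pair of alpha4 and beta1 chains, which binds VCAM1 and fibronectin, whereas alpha6 and beta1 bind laminin. The chains alphaL and beta2 form the leukocyte integrin that binds ICAM1, and beta7 with alpha4 binds MAdCAM1 in gut vessels. Selplg encodes the P-selectin ligand PSGL1, whose sugars and sulfated tyrosines are bound by selectins, and CD44 is the main receptor for hyaluronan.

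Levels are given in TPM, a measure of transcript abundance per length whose total is fixed for each library, so the depth in reads is unknown. Relative depths were read from the steps between low values. With the first Pax5+/+ library set to 1, the Pax5+/+ libraries lay at 1 to 1.03 and the Pax5-/- libraries at 0.855 and 1.54. The Meox2-cre libraries lay at 1 to 1.03 with their own first library set to 1, and the depths of the mm9 and mm10 tables were not compared. The targeted gene Pax5 ranged from 342 to 391 TPM in Pax5+/+ and from 376 to 397 TPM in Meox2-cre libraries, and the Pax5-/- libraries had 43.0 and 39.1 TPM. All 13 pro-B cell markers exceeded 1 TPM in each of the 8 libraries, and their summed level was 13796 to 16318 TPM in Pax5+/+, 7163 and 7622 TPM in Pax5-/- and 16348 to 18079 TPM in Meox2-cre cells. The 10 myeloid markers summed to 57.2, 277 and 214 TPM in Pax5+/+, to 78.7 and 114 TPM in Pax5-/- and to 468 to 1261 TPM in Meox2-cre cells. Since these are bulk libraries, fewer cells that express a gene and less RNA of it per cell cannot be told apart.

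The Pax5-/- and Pax5+/+ libraries were compared to ask which adhesion genes differ when Pax5 is absent. The test was limma on log2(TPM + 0.5) over 12066 genes with a mean above 1 TPM in either genotype, with Benjamini-Hochberg adjustment over all of them, and a gene passed at an adjusted p below 0.05. Fold changes are on that scale, which understates changes of low genes. The labels do not say whether replicates came from separate mice, so the p-values measure the spread between these libraries, which may be technical. Of the 9 genes, Cd44 and Itga6 were lower and Itgal was higher in Pax5-/- cells, whereas Itga4, Itgb1, Itgb2, Itgb7, Selplg and Icam1 did not pass. Thus 3 of 9 passed, next to 37.1% of all genes tested. The median log2 fold change of the 9 genes was -0.13, and that of all genes was -0.12.

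**Figure D1:**
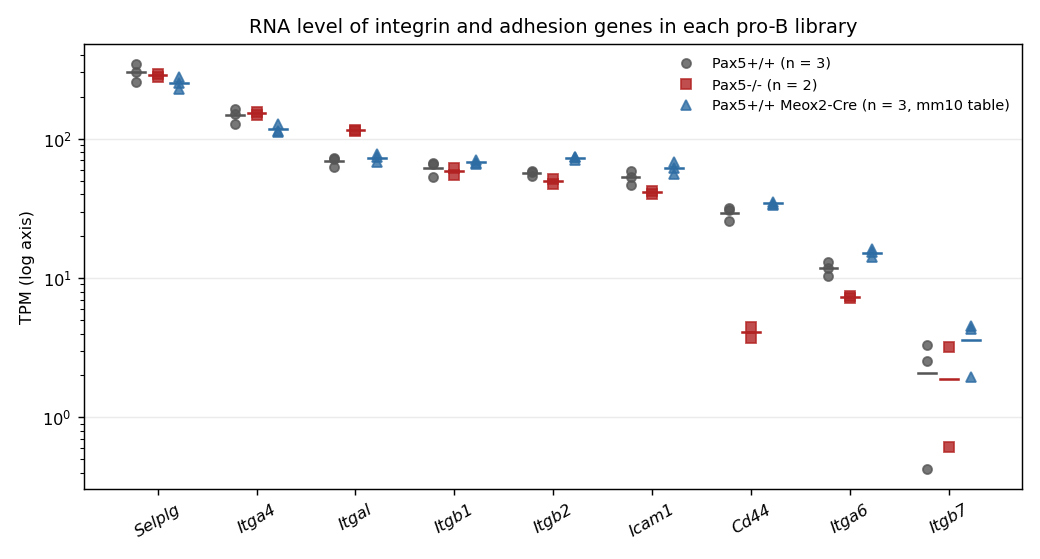
TPM of each of the 9 genes on a log axis, ordered by their Pax5+/+ mean; each symbol is 1 library and each short line a group mean. Cd44 stands apart, with 25.7 to 31.7 TPM in Pax5+/+ against 3.72 and 4.45 TPM in Pax5-/- libraries, while Selplg and Itga4 lead the order in every group.

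The order of the levels was much the same in the groups. In Pax5+/+ cells Selplg came first with 300 ± 43.9 TPM (SD, n = 3), followed by Itga4 with 147 ± 18.6 TPM. Then came Itgal, Itgb1, Itgb2 and Icam1, with means from 52.8 to 68.7 TPM and with ranges that overlapped between each gene and the next. Cd44 followed with 29.4 ± 3.22 TPM, Itga6 with 11.8 ± 1.39 TPM and Itgb7 with 2.09 ± 1.49 TPM, each below the range of the gene before it. Among genes above 1 TPM, Selplg exceeded 94.7% and Itgb7 exceeded 8.37%. In Pax5-/- cells no neighbours in the order overlapped, and Cd44 took a place below Itga6. In Meox2-cre cells the order was that of Pax5+/+ cells apart from an exchange of Itgb1 and Itgb2, and Itgal, Itgb2, Itgb1 and Icam1 again overlapped from each to the next.

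Cd44 (mm9 chromosome 2 from 102651298 to 102741822, minus strand) had 30.8, 25.7 and 31.7 TPM in Pax5+/+, but 3.72 and 4.45 TPM in Pax5-/- libraries. The Pax5-/- libraries were far below each Pax5+/+ library. Cd44 was 6.51-fold lower, a log2 fold change of -2.70 with a 95% interval of -3.11 to -2.30 (standard error 0.17; limma, adjusted p = 4.2e-05). In size this exceeded the change of 97.3% of all genes tested. Cd44 was the single member that also met a stricter call, which asks for a change over 3-fold and for 5 TPM or more on average in either genotype. Of all genes tested, 3.15% met it as lower in Pax5-/- cells and 2.71% as higher, or 5.86% in all. Cd44 lay above 54.1% of expressed genes in Pax5+/+ and above 15.4% in Pax5-/- cells. In the Meox2-cre libraries it had 34.3, 35.4 and 33.6 TPM. Erythroid markers, of which 3 of 5 were measurable, also fell in Pax5-/- cells in 3 of 3 tests, with sums of 22.3 to 68.5 TPM against 11.6 and 5.27 TPM and with Hbb-b1 listed at 0 in every library, whereas the myeloid sums overlapped between genotypes; their part in the Cd44 difference was not tested.

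Upstream sequence was found for 5 of the 9 genes (Itga4, Itgb1, Itgb7, Icam1 and Cd44) in RefSeq on GRCm38.p6, which is another build than that of the Pax5+/+ and Pax5-/- tables. The 250 bases before the transcript start are shown for Cd44, which had the largest change of the 9 genes, and for Icam1, which among the 5 windows held the most of the motifs searched. Capitals mark matches to 5 motifs, searched on both strands: the TATA box (letters TATAAA), the CCAAT box, the GC box (letters GGGCGG), the STAT site (letters TTCNNNGAA) and a core of the sequences bound by the Pax5 paired domain (letters GCGTGAC).
Cd44 (chr2:102901666-102901915, minus strand): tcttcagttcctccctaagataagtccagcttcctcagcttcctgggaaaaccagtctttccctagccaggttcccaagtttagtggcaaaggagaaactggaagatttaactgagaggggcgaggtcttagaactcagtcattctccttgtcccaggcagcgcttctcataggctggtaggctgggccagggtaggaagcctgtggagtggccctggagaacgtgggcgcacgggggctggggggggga
Icam1 (chr9:21015690-21015939, plus strand): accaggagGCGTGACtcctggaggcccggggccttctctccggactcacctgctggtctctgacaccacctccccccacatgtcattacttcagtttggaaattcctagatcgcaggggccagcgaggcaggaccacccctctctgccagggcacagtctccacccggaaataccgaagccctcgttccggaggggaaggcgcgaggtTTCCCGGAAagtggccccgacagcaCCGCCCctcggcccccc
The Cd44 window held none of these letters. Icam1 held 1 GC box (on the other strand), 1 STAT site and 1 paired domain core, which do not overlap, and Itga4 and Itgb1 held 1 GC box each. Of 32851 such windows in the genome, the TATA box was in 12.4%, the CCAAT box in 33.8%, the GC box in 32.7%, the STAT site in 7.02% and the paired domain core in 1.78%. GC content was 56.4% for Cd44 and 65.2% for Icam1, and the median over all windows was 52.4%. A match describes letters and is not evidence of binding, and its lack says only that these letters are missing from this window.

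Itgal (mm9 chromosome 7 from 134439774 to 134478651, plus strand) encodes the alphaL chain, which in leukocytes pairs with beta2 alone. It had 71.1, 72.2 and 62.8 TPM in Pax5+/+ libraries and 114 and 116 TPM in Pax5-/- libraries. Both Pax5-/- libraries were above every Pax5+/+ library. Itgal was thus 1.67-fold higher (95% interval 1.41 to 1.99), a log2 fold change of 0.74 (standard error 0.11, 95% interval 0.49 to 0.99; limma, adjusted p = 0.0018). This is below the 3-fold of the stricter call. Meox2-cre libraries had 73.4, 67.7 and 78.2 TPM.

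Itgb2 (mm9 chromosome 10 from 76992997 to 77028453, plus strand), the beta chain of Itgal, had 54.5, 59.0 and 58.1 TPM in Pax5+/+ and 47.2 and 51.9 TPM in Pax5-/- libraries. The Pax5-/- values were the lowest without overlap, but the gap is small. Its log2 fold change of -0.21 (standard error 0.11, 95% interval -0.46 to 0.05) did not pass (limma, adjusted p = 0.177). In Meox2-cre libraries it had 70.0, 74.5 and 73.7 TPM. Within a library, the log2 ratio of Itgal to Itgb2 was therefore 0.26 ± 0.14 (SD, n = 3) in Pax5+/+ and 1.21 ± 0.07 (SD, n = 2) in Pax5-/- cells, or ratios of 1.198 and 2.31. The groups did not overlap, and the exact two-sided permutation test gave p = 0.1, which is the smallest p that 5 libraries allow (adjusted p = 0.2 over 6 pairs). In Meox2-cre cells the ratio was 1.00.

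Icam1 (mm9 chromosome 9 from 20820404 to 20833241, plus strand) encodes a counter-receptor of that integrin. It had 53.6, 58.6 and 46.3 TPM in Pax5+/+ and 42.3 and 40.4 TPM in Pax5-/- libraries. The Pax5-/- libraries were lowest without overlap, the third Pax5+/+ library being the nearest to them. A log2 fold change of -0.34 (standard error 0.13, 95% interval -0.65 to -0.04) did not pass after adjustment (limma, adjusted p = 0.0777). Without the third Pax5+/+ library it was -0.43 and passed (limma, adjusted p = 0.0253). In the other 13 of 14 alternative fits Icam1 did not pass. It was -0.24 after rescaling by median ratios (limma, adjusted p = 0.25) and -0.23 after quantile normalization (limma, adjusted p = 0.265). Icam1 was measured in Meox2-cre libraries at 62.2, 56.3 and 67.8 TPM. In all, 5 of the 9 genes (Cd44, Itgal, Itga6, Icam1 and Itgb2) did not overlap between genotypes, which also held for 63.4% of all genes tested.

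**Figure D2:**
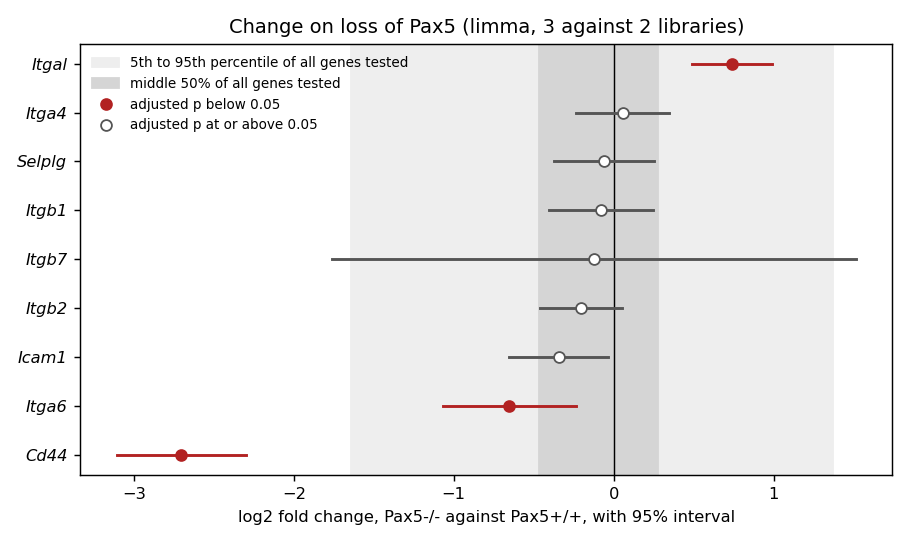
Log2 fold change of the 9 genes between Pax5-/- and Pax5+/+ libraries, with 95% intervals from limma; dark and light grey bands hold the middle 50% and the 5th to 95th percentile of all genes tested. Cd44 at -2.70 lies outside the light band, whose lower edge is -1.64, and the wide interval of Itgb7 spans -1.76 to 1.51.

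Itga6 (mm9 chromosome 2 from 71583673 to 71696473, plus strand), the laminin-binding alpha chain, had 10.3, 11.9 and 13.1 TPM in Pax5+/+ and 7.14 and 7.40 TPM in Pax5-/- libraries. All Pax5+/+ libraries were higher. Itga6 was thus 1.57-fold lower (log2 fold change -0.65), with a 95% interval of -1.07 to -0.24 (standard error 0.18; limma, adjusted p = 0.0246). Without the second Pax5+/+ library its log2 fold change was -0.64 and did not pass (limma, adjusted p = 0.0711). Without the first Pax5-/- library it was -0.63 and without the second -0.68. Itga6 did not pass in these fits either, each of which has a lone Pax5-/- library. Meox2-cre libraries had 14.2, 16.1 and 15.4 TPM.

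Itga4 (mm9 chromosome 2 from 79095583 to 79173280, plus strand) was the most abundant integrin chain, with 127, 151 and 164 TPM in Pax5+/+ and 157 and 148 TPM in Pax5-/- libraries. The genotypes overlapped. Itga4 did not pass, with a log2 fold change of 0.06 and a 95% interval of -0.24 to 0.35 (standard error 0.13; limma, adjusted p = 0.752). For Meox2-cre cells the values were 128, 111 and 114 TPM. The Itga4 value is uncertain at its end, where exons of Cerkl lie on the other strand and counting did not use strand. By GENCODE exons on mm9, 1124 of 13978 exonic bases of Itga4, or 8.04%, are shared with Cerkl. The authors counted with a modified refGene annotation, so the share in the counted gene is not known. Cerkl itself had a mean of 0.939 TPM in Pax5+/+ and 1.01 TPM in Pax5-/- libraries.

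Itgb1 (mm9 chromosome 8 from 131209554 to 131257100, plus strand) encodes the beta chain shared by alpha4 and alpha6. It had 52.8, 66.0 and 66.8 TPM in Pax5+/+ and 61.9 and 54.9 TPM in Pax5-/- libraries. Both Pax5-/- values lay within the Pax5+/+ range. Itgb1 did not pass (log2 fold change -0.08, standard error 0.14, 95% interval -0.40 to 0.25; limma, adjusted p = 0.687). In Meox2-cre cells it stood at 70.2, 66.5 and 66.2 TPM. The log2 ratio of Itga6 to Itgb1 was -2.35 ± 0.07 (SD, n = 3) in Pax5+/+ and -2.92 ± 0.16 (SD, n = 2) in Pax5-/- cells, a difference of -0.57 without overlap (exact permutation p = 0.1, adjusted p = 0.2). The ratio of Itga4 to Itgb1 was 2.37 in Pax5+/+ and 2.60 in Pax5-/- cells, a log2 difference of 0.13, again with an exact permutation p of 0.1 and an adjusted p of 0.2.

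Itgb7 (mm9 chromosome 15 from 102046426 to 102062366, minus strand), the gut-homing beta chain, was the lowest of the 9 genes and the most variable. It had 0.426, 2.55 and 3.30 TPM in Pax5+/+, 0.609 and 3.19 TPM in Pax5-/-, and 4.499, 4.32 and 1.95 TPM in Meox2-cre libraries. The first library of each of the mm9 groups was low, and the genotypes overlapped. The log2 fold change was -0.13 and did not pass (standard error 0.70; limma, adjusted p = 0.903), and its 95% interval of -1.76 to 1.51 leaves room for changes in either direction. The first Pax5+/+ and the first Pax5-/- library also had the lowest myeloid marker sums of their groups (57.2 and 78.7 TPM, with Elane and S100a8 at 0 in the latter); the part of such cells in the Itgb7 value was not tested. The log2 ratio of Itgb7 to Itgb1 differed by -0.05 between genotypes and that of Itga4 to Itgb7 by 0.18 (exact permutation p = 1.0 and 0.9).

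**Figure D3:**
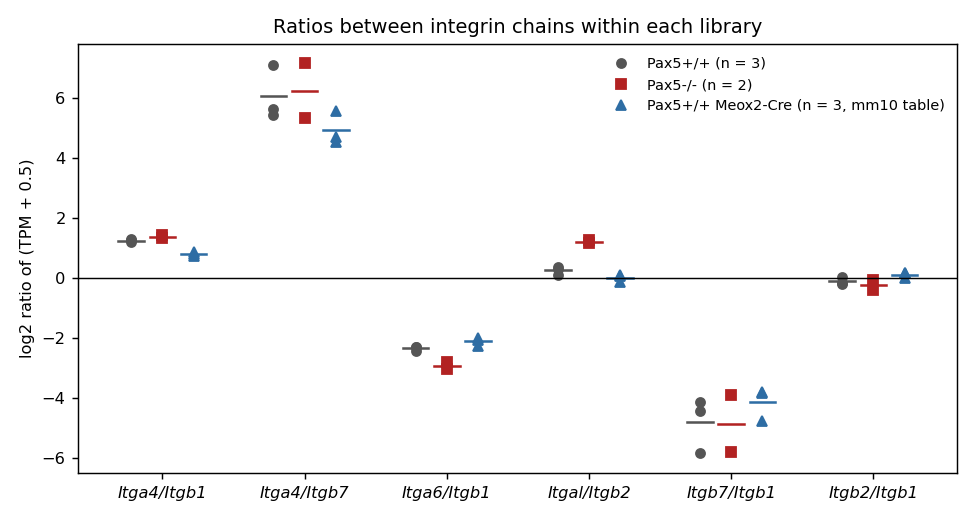
Log2 ratio of (TPM + 0.5) between pairs of integrin chains in each library; short lines are group means. Itgal to Itgb2 was higher in both Pax5-/- libraries (mean 1.21) than in the Pax5+/+ libraries (mean 0.26), and the ratios with Itgb7 spread widely in every group.

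Over 26 integrin subunit genes, 12 to 15 exceeded 1 TPM in each library, and their levels summed to 367 to 449 TPM in Pax5+/+, 458 and 449 TPM in Pax5-/- and 459 to 462 TPM in Meox2-cre libraries. The 6 subunits among the 9 genes made up 80.7 to 86.2% of that sum in Pax5+/+, 84.7 and 85.03% in Pax5-/- and 74.2 to 78.0% in Meox2-cre libraries. Among the 3 alpha chains, Itgal took 30.3% in Pax5+/+ and 41.9% in Pax5-/- cells, whereas Itga4 took 64.5% and 55.5%. In each case these genotypes did not overlap (exact permutation p = 0.1, adjusted p = 0.2 over 6 quantities). In Meox2-cre libraries Itgal took 34.1 to 37.6%, and Itga4 took 55.0 to 59.4%. That range of Itga4 overlapped the Pax5-/- values of 54.5 and 56.5%. Shares are relative, and the level of Itga4 itself did not pass. The summed level of the 3 alpha chains averaged 228 TPM over the Pax5+/+ and 275 TPM over the Pax5-/- libraries (exact permutation p = 0.1, adjusted p = 0.2), and that of the 3 beta chains 121 and 110 TPM (exact permutation p = 0.4). Itgb1 took 51.0% and 53.2% of the beta chains (exact permutation p = 0.5), with ranges that overlapped between the genotypes.

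Of the other 20 subunit genes, 9 were tested. In Pax5-/- cells 1 of them (Itgb3) was higher and 3 (Itgb4, Itgam and Itgav) were lower, next to 15.6% higher and 21.5% lower among all genes. Itgb3, the beta chain of the platelet and vitronectin receptors, rose from 2.04 to 2.73 TPM in Pax5+/+ to 6.33 and 6.67 TPM (log2 fold change 1.32). Itgav, a partner of Itgb3, fell from 10.4 to 14.8 TPM in Pax5+/+ to 5.25 and 5.30 TPM (log2 fold change -1.12). Itgb4, the hemidesmosome beta chain that pairs with Itga6, went from 5.08 to 8.45 TPM down to 1.22 and 1.78 TPM (log2 fold change -1.86) and met the stricter call. Itgam, the alphaM chain of myeloid cells, went from 4.98 to 10.3 TPM down to 3.26 and 3.08 TPM (log2 fold change -1.22). Itgam is itself a myeloid marker, and of the 10 myeloid markers 1 (Ctsg) was higher and 2 (Elane and Itgam) were lower in Pax5-/- cells. Itga5, the fibronectin receptor chain, had 19.7, 45.3 and 31.9 TPM in Pax5+/+ and 44.9 and 41.7 TPM in Pax5-/- libraries and did not pass (limma, adjusted p = 0.235). Itgae, which pairs with Itgb7, was at or below 0.375 TPM in all libraries and was not tested. The median log2 fold change of the 9 tested subunits was 0.15.

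**Figure D4:**
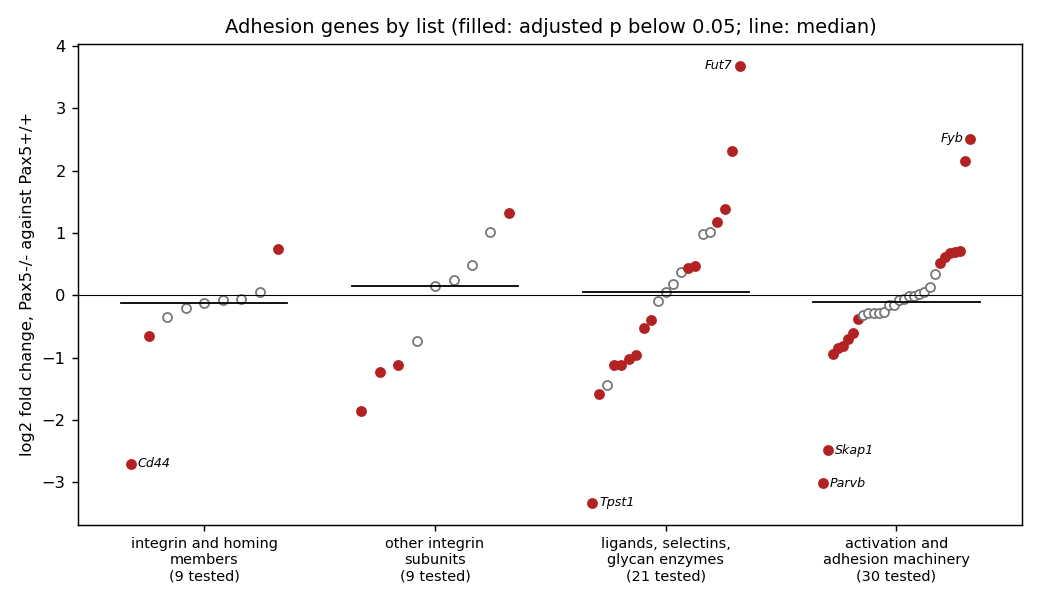
Log2 fold change between Pax5-/- and Pax5+/+ libraries for the tested genes of 4 lists, each point 1 gene, filled where it passed, with the list median as a line. Passing genes lie on both sides of 0 in each list, and the medians run from -0.13 to 0.15.

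Selplg (mm9 chromosome 5 from 114267807 to 114280510, minus strand) was the most abundant of the 9 genes. It had 303, 343 and 255 TPM in Pax5+/+ and 278 and 294 TPM in Pax5-/- libraries, and the genotypes overlapped. Selplg did not pass (log2 fold change -0.06, standard error 0.13, 95% interval -0.37 to 0.25; limma, adjusted p = 0.749). Meox2-cre libraries had 252, 230 and 276 TPM. Genes for enzymes that finish the selectin-binding sugars and sulfates on its product were less even. Fut7, a fucosyltransferase that makes sialyl Lewis x, had 0.643, 1.39 and 0.746 TPM in Pax5+/+ and 17.5 and 17.2 TPM in Pax5-/- libraries, with no overlap (log2 fold change 3.68, standard error 0.28; limma, adjusted p = 8.8e-05). Fut4, the second such fucosyltransferase of leukocytes, was also higher (log2 fold change 1.18). Tpst1, a tyrosine sulfotransferase, had 37.4, 42.0 and 38.6 TPM in Pax5+/+ and 3.01 and 3.98 TPM in Pax5-/- libraries (log2 fold change -3.33). Its relative Tpst2 was higher, with 35.8 to 46.6 TPM in Pax5+/+ and 56.7 and 60.1 TPM in Pax5-/- libraries (log2 fold change 0.47). Gcnt1, which starts the branched O-glycan, was lower (log2 fold change -1.02), and the sialyltransferase gene St3gal4 was higher (log2 fold change 0.44). St3gal6 (log2 fold change 0.38) and B4galt1 (log2 fold change 0.19) did not pass.

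**Figure D5:**
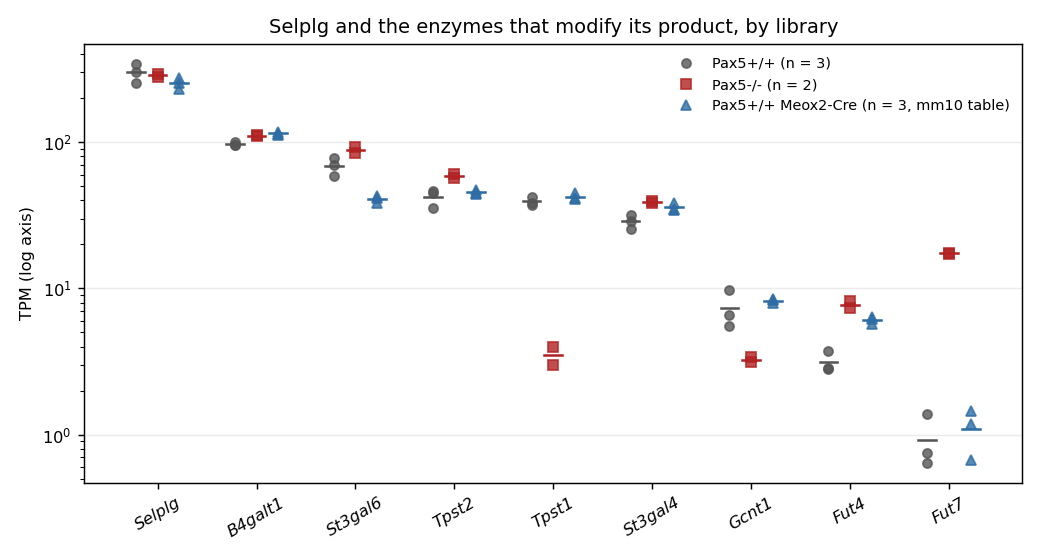
TPM, on a log axis, of Selplg and of 8 genes for enzymes that modify its product, each symbol 1 library and each short line a group mean. Selplg overlapped between genotypes, whereas Fut7 was at 17.5 and 17.2 TPM and Tpst1 at 3.01 and 3.98 TPM in Pax5-/- libraries, against Pax5+/+ means of 0.925 and 39.3 TPM.

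The list of ligands, selectins and glycan enzymes held 33 genes, of which 21 were tested, with 6 higher and 8 lower in Pax5-/- cells; among all genes 15.6% were higher and 21.5% lower. Cd47, which encodes an integrin-associated protein, was higher (log2 fold change 1.39), with 129 to 146 TPM in Pax5+/+ and 345 and 379 TPM in Pax5-/- libraries. F11r, the junctional adhesion molecule that binds the Itgal product, fell from 2.17 to 3.65 TPM to 0.477 and 0.693 TPM (log2 fold change -1.57). Among further counter-receptors for the Itgal and Itgb2 pair, Icam2 went from 113 to 130 TPM down to 83.8 and 82.0 TPM (log2 fold change -0.52), and Icam4 from 4.19 to 8.77 TPM down to 2.78 and 2.53 TPM (log2 fold change -1.12). Vcam1, the ligand of alpha4 and beta1 chains, had 0.224, 1.97 and 1.69 TPM in Pax5+/+ and 0.0872 and 0.0724 TPM in Pax5-/- libraries and did not pass (log2 fold change -1.44; limma, adjusted p = 0.0709). It belongs to a list of 6 stroma and endothelium markers that summed to 16.7 to 37.8 TPM in Pax5+/+ and 7.61 and 27.8 TPM in Pax5-/- libraries. Most of these sums was Col1a1, with 12.2 to 34.8 TPM in Pax5+/+ and 27.1 and 6.19 TPM in Pax5-/- libraries, which did not pass. Cxcl12 and Kdr were lower, from Pax5+/+ means of 1.17 and 1.10 TPM to 0.158 and 0.0422 TPM. The part of such cells in the Vcam1 value was not tested. Madcam1, the ligand of alpha4 and beta7 chains, was at or below 0.104 TPM in all libraries. Around Cd44, the hyaluronan synthase genes Has1, Has2 and Has3 were at or below 0.248 TPM in all libraries, and Hmmr, another hyaluronan receptor gene with a role in mitosis, was lower in Pax5-/- cells (log2 fold change -1.11). The median log2 fold change of the 21 genes was 0.06.

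In the machinery that activates integrins and ties them to actin, 30 of 35 genes were tested, and 7 were higher and 8 lower in Pax5-/- cells, next to 15.6% and 21.5% of all genes. The median log2 fold change of the 30 genes was -0.11, and that of all genes -0.12. Talin 1 and kindlin 3, which bind the tails of beta chains, did not pass: Tln1 had 310 to 375 TPM in Pax5+/+ and 338 and 318 TPM in Pax5-/- libraries (log2 fold change -0.07; limma, adjusted p = 0.664), and Fermt3 had 278 to 360 TPM and 351 and 370 TPM (log2 fold change 0.13; limma, adjusted p = 0.483). The largest rises were those of the adaptor gene Fyb, from 0.659 to 1.81 TPM to 8.80 and 11.02 TPM (log2 fold change 2.51), of Rapgef3, an exchange factor for the integrin-activating GTPase Rap1, from 2.05 to 4.09 TPM to 16.3 and 14.7 TPM (log2 fold change 2.15), and of Lims1 (log2 fold change 0.72). The largest falls were those of Parvb, which encodes beta-parvin of the complex with integrin-linked kinase, from 45.2 to 70.7 TPM to 7.44 and 5.93 TPM (log2 fold change -3.01), of Skap1, the partner adaptor of the Fyb product, from 3.63 to 5.32 TPM to 0.338 and 0.337 TPM (log2 fold change -2.48), and of Cib1 (log2 fold change -0.94). Among the 3 genes for linkers that tie the CD44 and PSGL1 tails to actin, Rdx was lower (log2 fold change -0.37), and Ezr and Msn did not pass (both log2 fold change -0.28).

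The 3 tested genes nearest to each member were found by the root-mean-square distance of their centred log2 values over the 5 mm9 libraries. For Cd44 they were Aim1, Rab19 and Gm9054, at distances of 0.10 to 0.13. For Itgal they were Spr, Akr7a5 and Adcy3, at 0.02 to 0.03, and for Itga6 Tmem127, Cbfb and Ppme1, at 0.02 each. The nearest to Icam1 were Snap29, Nr1d1 and Csnk1g2, to Itgb2 Hsbp1, Cdc40 and Heatr2, to Itgb1 Rasa4, Ss18 and Adam9, to Itga4 Tnfrsf21, Creg1 and Dcaf17, and to Selplg Krtcap2, Map2k2 and Mapk3. Itgb7 had no gene as near: Ly6c2, Mir5134 and Mir7019 lay at 0.21 to 0.30. The distances describe these 5 libraries only.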

How the data were processed

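The deposited values are TPM, computed by the authors from gene-level read numbers after ribosomal RNA reads had been taken out. The authors aligned the Pax5+/+ and Pax5-/- libraries to mm9 with TopHat 1.4.1a and the Meox2-cre libraries to mm10 with STAR 2.4.2a, and counted with featureCounts 1.5.0, in the mm9 tables at default settings, which ignore strand. TPM are relative within a library, so a large change in abundant genes moves all others, and values of the mm9 and mm10 tables were set side by side without a test. Groups came from the labels, and replicate numbers in accession order only name libraries; the labels call the Meox2-cre mice Pax5(+/+) as do the study's results, while a supplementary table of the study lists them as Pax5+/-.

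Entries were matched by symbol before any added mark. limma 3.58.1 (R 4.3.3; lmFit, then eBayes with trend) was run on log2(TPM + 0.5) with genotype as the only term; the fit was tested on simulated data. No counts were used, so no count model was run. Ratios and shares were compared by exact two-sided permutation of the 5 libraries (10 splits). The 9 genes and all lists were chosen with earlier results of these data known. Named are all 9 genes, the 3 genes of each list with the largest passing change in each direction, Vcam1, Icam2, Madcam1, Itgae, Itgam, Itgav, Itga5, Fut7, Tln1, Fermt3, Pax5 and the 3 nearest genes of each member. Hbb-b1, Ly6d, Ctsg, Elane, S100a8, Fut4, Tpst2, Gcnt1, St3gal4, St3gal6, B4galt1, Has1, Has2, Has3, Hmmr, Ezr, Msn, Rdx and Cerkl were named after their values were seen. The same holds for the markers Gp9, Pf4, Ppbp, Itga2b, Siglech, Irf8, Bst2, Tcf4, Col1a1, Cxcl12, Kdr, Nkg7, Gzma, Klrb1c and Prf1. Coordinates are from GENCODE on mm9, and upstream sequences from RefSeq on GRCm38.p6. Alternatives were other pseudocounts, filters, eBayes settings and scalings, leaving out each library, and other fold thresholds. The ChIP-seq samples are not analysed here, and some genes that the naming rule covers are not reported here. Python 3.11.15, pandas 2.3.3, numpy 2.4.6 and matplotlib 3.10.9 were used.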

Additional observations from a re-analysis of the deposited data

How the results depend on the processing

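Of 125 refitted log2 fold changes of the 9 genes, 110 kept their direction and their side of the threshold, 3 fell short of it (all Itga6, without 1 library), 1 came to pass it (Icam1, without the third Pax5+/+ library) and 11 changed sign. Cd44 (-2.82 to -2.58, adjusted p 1.6e-05 to 0.0052 from limma) and Itgal (0.68 to 0.85, adjusted p 0.0012 to 0.041 from limma) passed in all 14 alternative fits. Rescaling by median ratios moved the median of all genes from -0.12 to -0.01 and quantile normalization moved it to -0.02; Itgb1 then stood at 0.027 and 0.0071, Selplg at 0.046 and 0.047, and Itgb7 at 0.11 under quantile normalization, so the sign of these small changes depends on scaling. Under quantile normalization, 2 other integrin subunits were higher instead of 1; the cause was not tested. Leaving out 1 library at a time, log2 fold changes ran from -0.045 to 0.14 for Itga4, -0.19 to 0.0081 for Itgb1, -0.99 to 0.74 for Itgb7 and -0.17 to 0.041 for Selplg, and the difference in the Itga6 to Itgb1 ratio from -0.68 to -0.46. Lower members then numbered 1 to 3, higher and lower other subunits 0 to 2 and 1 to 3, higher and lower ligands, selectins and enzymes 3 to 6 and 1 to 9, and higher and lower machinery genes 3 to 7 and 5 to 10; the lowest counts came without a Pax5-/- library (the 2 higher subunits without the first), when fewer samples are fitted and the lone library is assumed to vary like the others. Without the second Pax5+/+ library the lower members also numbered 1 and the lower ligands, selectins and enzymes 5. Itgb7 was not tested with a filter at 5 TPM. No paired analysis was possible because no label links a library of one genotype to a library of the other. TPM keep no read depth, which limits Itgb7 and other low genes most.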

Other observations

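Markers of further cell types are given as summed levels, with the number that passed the limma test between Pax5-/- and Pax5+/+ libraries. Of 8 T cell markers, 2 were tested, 1 was higher and 1 lower, and the sums were 8.87 to 13.2 TPM in Pax5+/+, 7.31 and 9.82 TPM in Pax5-/-, and 9.84 to 10.95 TPM in Meox2-cre libraries. Of 6 NK cell markers, 5 were tested, and 2 (Nkg7 and Gzma) were higher and 2 (Klrb1c and Prf1) lower. The sums were 10.02 to 20.8 TPM in Pax5+/+ and 24.4 to 32.2 TPM in Pax5-/- libraries. Nkg7 made up most of the Pax5-/- sums, with 17.9 and 22.7 TPM against 1.71 to 5.35 TPM in Pax5+/+ libraries. The 5 megakaryocyte markers, of which 1 of 4 tested was higher, summed to 12.2 to 20.4 TPM in Pax5+/+ and to 34.0 and 36.2 TPM in Pax5-/- libraries. Most of the Pax5-/- sums was Gp9, with 28.3 and 33.9 TPM against 4.83 to 8.12 TPM in Pax5+/+ libraries. Pf4, Ppbp and Itga2b had log2 fold changes of -1.08, -0.23 and -0.73 and did not pass. Plasmacytoid dendritic cell markers summed to 392 to 454 TPM in Pax5+/+ and to 214 to 304 TPM in Pax5-/- libraries, with 1 higher and 2 lower of 4 tested. Most of these sums was Irf8, Bst2 and Tcf4, with Pax5+/+ means of 237, 103 and 84.7 TPM. Irf8 and Tcf4 were lower, whereas Siglech was higher, with 0.106 to 1.12 TPM in Pax5+/+ and 1.79 and 9.06 TPM in Pax5-/- libraries. Plasma cell markers summed to 97.4 to 107 TPM and to 87.4 to 94.95 TPM, with 1 lower of 2 tested, and of the stroma and endothelium markers 2 of 4 tested were lower. Of the 13 pro-B markers, 8 were lower and 1 (Ly6d, which is part of the gate for Pax5-deficient progenitors) was higher. The part of these differences in the adhesion values was not tested.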
